A study of Drosophila melanogaster with 30 samples.

Results

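Insect cuticle is hardened and coloured by a short pathway of catecholamine chemistry, and 7 of its genes were followed here: ple, Pu, Ddc, black (b), ebony (e), tan (t) and yellow (y). They were taken by name, as the probe sets whose only gene symbol in the array's platform annotation is one of these 7. The rule uses no measured value, but the set of genes was picked with earlier results of these data known. Of the 7, 6 were measured, with 1 probe set each, among 13402 genes with a symbol of their own on the array. No probe set was listed under b alone, so black was not analysed here.

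Tyrosine hydroxylase (ple) turns tyrosine into dopa and needs the cofactor tetrahydrobiopterin, whose synthesis starts with the GTP cyclohydrolase encoded by Pu. Dopa decarboxylase (Ddc) then makes dopamine. Aspartate decarboxylase (black) supplies beta-alanine, which ebony joins to dopamine to give a pale sclerotizing agent, and tan splits that product again, while yellow is needed for black melanin. In the fly most tanning takes place around the moult and in the first hours of adult life, and the same enzymes also act in dopamine neurons and, for ebony and tan, in the histamine cycle of the eye.

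The RNA came from adult virgin males of Drosophila melanogaster, of a laboratory stock collected in the field, and was hybridized to 30 Affymetrix Drosophila Gene 1.0 arrays. There were 10 diet histories with 3 arrays each. A history is written by 1 letter per generation for the food during development, R meaning rich and P poor. The F0 males were R or P. The F1 males were R-R, R-P, P-R or P-P, the first letter being the food of their parents. The F2 males were R-R-R and R-R-P or P-R-P and P-R-R, so that all of them had rich-raised F1 parents, and the first letter is the food of their grandparents. All groups came from the same stock and carried no further treatment in the labels. The sources used here give no food recipe, age, number of flies per sample or dissected tissue. Since no label calls the samples of a group separate cultures, the p-values rest on the spread among these samples alone, and that spread may be technical.

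Values are the authors' normalized levels on a log scale taken as base 2. Differences are poor minus rich, given with the standard error (SE) of a model of 10 group means fitted with limma to all 15309 probe sets. Adjustment of the p-values (Benjamini-Hochberg) ran over those probe sets, and a gene is said to rise or fall only with an adjusted p under 0.05. The level of one probe set cannot be set against that of another, because probes differ in their response.

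The 6 genes were not equally bright. The probe sets of ple, tan, Pu and Ddc lay above their array's median on all 30 arrays. That of ebony did so on 13 arrays and that of yellow on 1, so these last genes were read near or below the middle of the scale, where small differences are hardest to measure. Accessory gland and testis transcripts were high on every array. The mean over accessory gland genes was 5.40 to 5.80, and that over 16 testis genes 4.21 to 4.53 on 28 arrays and 4.05 on both of those that carried ovary transcripts.

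In all, 4 arrays stood apart, 2 of each kind. Differences of the members are mostly given again without them where that ended a call or moved the size by over 1.5 times. For other genes this was done only in part, so a difference given once may still depend on them. The second replicates of R-P and of P-R-R carried ovary and yolk transcripts, with a mean of 3.50 and 3.34 over 19 female genes against 0.310 to 0.473 on the other 28 arrays. Replicates 1 and 3 of R-R were low in structural cuticle transcripts. Their mean over 124 genes was 0.579 and 0.560 against 0.700 to 0.938 elsewhere, beside array medians of 0.82 to 0.94. The same pair was low in fat body transcripts, with a mean of 2.95 and 2.89 over 5 genes against 3.49 to 4.68, and in muscle transcripts, with a mean of 6.20 and 6.50 over 12 genes against 6.51 to 7.17. Between R-P and R-R the difference of all 12 muscle genes was above 0 (median 0.43), with 0 called. In such samples fewer cells of a type and less RNA per cell cannot be told apart.

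Food eaten during a male's own development was the first comparison, averaged over the 5 pairs of groups that share an ancestry. Poor-raised males had higher ple and higher tan, which both rose, so that the first enzyme of the pathway and the enzyme that releases dopamine from its beta-alanine conjugate were the members that moved. Ebony and yellow had average differences above 0 that did not pass the test, and Pu and Ddc did not pass either. Thus 2 of 6 members were called, both higher, where limma called 1.84% of all probe sets, 0.856% as higher. At an unadjusted p under 0.05 the count is 4 of 6, with ebony and yellow added, against 10.2% of all probe sets.

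Tyrosine hydroxylase (ple) is the enzyme that commits tyrosine to the pathway. On the 15 rich-raised arrays its level ran from 2.74 to 5.19 with a median of 4.53, and on the 15 poor-raised arrays from 4.45 to 5.54 with a median of 5.15. All but 1 of the poor-raised arrays lay above the rich median, and 7 lay above the highest rich-raised array. The average difference was 0.73 ± 0.14, a 1.66-fold rise (limma, adjusted p = 0.00253, 95% interval 0.45 to 1.02). Without replicates 1 and 3 of R-R it was 0.50 ± 0.11 (adjusted p = 0.0127), and without all 4 arrays that stood apart 0.46 ± 0.11 (adjusted p = 0.0354). Averaged over the 4 pairs other than R-P and R-R it was 0.49 ± 0.16, which did not pass (adjusted p = 0.166).

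By group, ple read 5.19, 4.39 and 4.85 in R and 4.63, 5.20 and 5.29 in P, so the F0 groups overlapped (0.23 ± 0.31). In F1 males of rich-raised parents it read 2.83, 4.52 and 2.74 in R-R and 5.06, 5.23 and 4.86 in R-P. The 3 R-R arrays all lay below the 3 R-P arrays, but replicate 2 of R-R was close to the rich-raised arrays of other groups and replicates 1 and 3 were far under every other array, the 28 others running from 4.16 to 5.54. The difference of this pair, 1.69 ± 0.31 or 3.22-fold, passed (limma, adjusted p = 0.00604) and was the only one among the 6 members that did, against 0.601% of all probe sets, 0.131% as higher. It was 1.60 ± 0.35 without the ovary-bearing arrays (adjusted p = 0.0429) and 0.53 ± 0.31 without replicates 1 and 3 of R-R (adjusted p = 0.998), when that group keeps 1 array, assumed to vary like the others. The call was also lost without replicate 1 or 3 of R-R or replicate 2 of R-P alone, at 1.38 or more (adjusted p up to 0.0751).

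In F1 males of poor-raised parents ple read 4.79, 4.60 and 4.64 in P-R and 5.15, 5.54 and 5.22 in P-P, and the groups did not overlap. The F2 values were 4.33, 4.20 and 4.16 in R-R-R, 5.13, 5.38 and 4.45 in R-R-P, 4.65, 4.53 and 5.01 in P-R-R, and 5.42, 4.85 and 4.99 in P-R-P. The R-R-R and R-R-P arrays were separate by a narrow margin, and the P-R-R and P-R-P arrays overlapped. These 3 pairs differed by 0.63 ± 0.31, 0.76 ± 0.31 and 0.36 ± 0.31, none past the test (adjusted p = 0.998, 0.534 and 0.807). Ordered by mean, the groups ran from R-R at 3.36 ± 1.00 (SD, n = 3) and R-R-R at 4.23 ± 0.09 to P-P at 5.30 ± 0.21, and of the 9 steps between neighbours only that from R-R-R to P-R (4.68 ± 0.10) had no overlap.

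**Figure D1:**
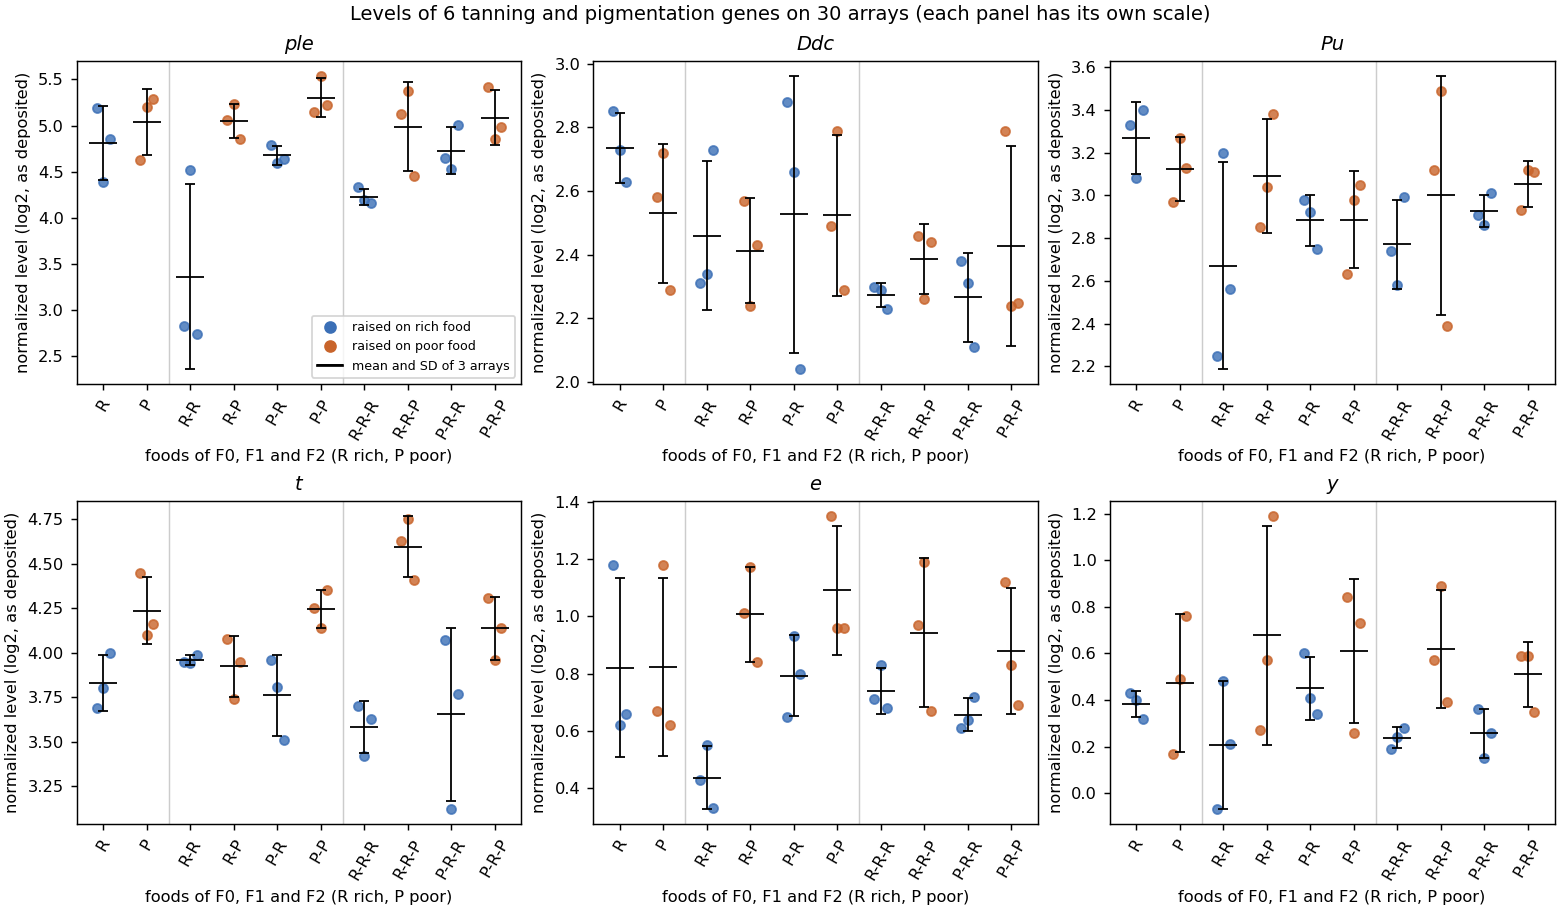
Normalized log2 level (vertical axis, each panel on its own scale) of ple, Ddc, Pu, tan (t), ebony (e) and yellow (y) on every array, by diet history (horizontal axis). Points are arrays, blue raised on rich and orange on poor food, and bars are the mean and SD of 3 arrays. In the panel of ple, 2 R-R arrays sit at 2.83 and 2.74 and all others at or above 4.16, while in the panel of tan the R-R-P arrays, at 4.41 to 4.75, are the highest group.

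GTP cyclohydrolase (Pu) provides the cofactor of tyrosine hydroxylase and also feeds the pteridine eye pigments. Its level ran from 2.25 to 3.40 on rich-raised arrays (median 2.92) and from 2.39 to 3.49 on poor-raised arrays (median 3.05). The average difference was 0.13 ± 0.10 (limma, adjusted p = 0.759, 95% interval -0.07 to 0.32). The lowest values, 2.25 and 2.56, were again those of replicates 1 and 3 of R-R, beside 3.20 in replicate 2, and R-P read 2.85, 3.04 and 3.38. That pair gave 0.42 ± 0.22 (adjusted p = 0.605), and -0.11 ± 0.27 without those low arrays, when the average was 0.02 ± 0.09. The R-R-P group was the most uneven, at 3.12, 3.49 and 2.39, and in no pair of groups did the arrays of Pu separate.

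Dopa decarboxylase (Ddc) makes dopamine, and serotonin in neurons. It showed the narrowest spread of the bright members, from 2.04 to 2.88 on rich-raised and from 2.24 to 2.79 on poor-raised arrays, with medians of 2.34 and 2.44. The average difference was 0.00 ± 0.08 (limma, adjusted p = 0.995), with a 95% interval from -0.16 to 0.17. The 5 pairs ran from -0.21 ± 0.18 in F0 to 0.16 ± 0.18 between P-R-P and P-R-R, 2 of them above 0, and none was separate. The highest group was R, at 2.85, 2.73 and 2.63, and the lowest were P-R-R, at 2.38, 2.31 and 2.11, and R-R-R, at 2.30, 2.29 and 2.23, all of them raised on rich food. All 9 neighbouring groups in the order of Ddc overlapped.

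Ebony (e), which joins beta-alanine to dopamine, had a higher mean after poor food in 4 pairs and a level mean in F0 (0.0033 ± 0.17, -0.018 with array weights). Rich-raised arrays ran from 0.33 to 1.18 (median 0.66) and poor-raised arrays from 0.62 to 1.35 (median 0.96), with 14 of 15 poor-raised arrays above the rich median. The average difference, 0.26 ± 0.07 or 1.20-fold, missed the threshold (limma, adjusted p = 0.0737). It passed with arrays centred on their medians (0.27, adjusted p = 0.0489), with replicate numbers as a block (adjusted p = 0.0476) and without the F0 pair (0.32, adjusted p = 0.0482), and its adjusted p was 0.410 without all 4 arrays that stood apart.

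Values of ebony in R-R were 0.43, 0.55 and 0.33, the lowest group, against 1.01, 1.17 and 0.84 in R-P (0.57 ± 0.17, adjusted p = 0.157, and 0.38 ± 0.26 without all 4 arrays that stood apart). In P-R it read 0.65, 0.93 and 0.80, and in P-P 1.35, 0.96 and 0.96 (0.30 ± 0.17, adjusted p = 0.998). Both of these pairs were separate, and in R-R all 3 arrays were low, replicate 2 included. The F0 groups coincided, with 1.18, 0.62 and 0.66 in R and 0.67, 1.18 and 0.62 in P. The F2 groups overlapped, with means of 0.74 ± 0.08 in R-R-R, 0.94 ± 0.26 in R-R-P, 0.66 ± 0.06 in P-R-R and 0.88 ± 0.22 in P-R-P (SD, n = 3).

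Tan (t) reverses the step of ebony by releasing dopamine, and in the eye histamine, from beta-alanine. On rich-raised arrays it ran from 3.12 to 4.07 (median 3.80) and on poor-raised arrays from 3.74 to 4.75 (median 4.16), with 12 of the 15 poor-raised arrays above the highest rich-raised one. The average difference was 0.47 ± 0.08, a 1.39-fold rise (limma, adjusted p = 4.23e-04, 95% interval 0.31 to 0.63). It stayed between 0.34 and 0.60 and past the threshold under all 14 alternatives (adjusted p up to 0.0451) and in all 30 fits that left out 1 array. The lowest value was the average over the 4 pairs other than R-R-P and R-R-R.

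In F2 males of rich-raised grandparents tan read 3.70, 3.42 and 3.63 in R-R-R and 4.63, 4.75 and 4.41 in R-R-P. These are among the lowest and the highest groups of the series and lie far apart. The difference of 1.01 ± 0.17, 2.02-fold, passed (limma, adjusted p = 0.0105) and was again the only member called in its pair, against 0.0588% of all probe sets, 0.0131% as higher. It passed in 3 of the 6 fits that left out 1 of these arrays and not without replicate 2 of R-R-R or replicate 1 or 2 of R-R-P (adjusted p up to 0.135), nor in a fit to these 6 arrays alone (adjusted p = 0.113), although the size stayed between 0.93 and 1.11.

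Tan read 3.69, 3.80 and 4.0 in R and 4.45, 4.10 and 4.16 in P (0.41 ± 0.17, adjusted p = 0.695), and 3.96, 3.81 and 3.51 in P-R and 4.25, 4.14 and 4.35 in P-P (0.49 ± 0.17, adjusted p = 0.835). Both pairs were separate. In P-R-R it read 4.07, 3.12 and 3.77 and in P-R-P 4.31, 3.96 and 4.14 (0.48 ± 0.17, adjusted p = 0.437), where only the upper P-R-R array overlapped and the lowest, 3.12, was the ovary-bearing one. Without the ovary-bearing arrays this difference was 0.22. The exception was the pair in which ple differed most, since tan read 3.95, 3.94 and 3.99 in R-R and 4.08, 3.74 and 3.95 in R-P (-0.04 ± 0.17, adjusted p = 0.976, and 0.055 without the ovary-bearing arrays). In the R-R arrays with low ple and low cuticle transcripts, tan was thus at the level of replicate 2.

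Since tan and ebony also act in the eye, the eye markers are given beside them. Of 4 measured, 3 fell on average over the 5 pairs, namely trpl (-0.51 ± 0.11, limma, adjusted p = 0.00581), Arr1 (-0.38 ± 0.07, adjusted p = 0.00122) and Arr2 (-0.37 ± 0.08, adjusted p = 0.0122), and trp differed by -0.34 ± 0.10 (adjusted p = 0.0992). Arr1 and Arr2 encode arrestins and trp and trpl ion channels of photoreceptors. Of all probe sets, 1.84% were called in this average, in either direction. Without replicates 1 and 3 of R-R, that group keeps 1 array. The averages of trpl, Arr1, Arr2 and trp were then -0.54, -0.36, -0.36 and -0.36. The median of the 4 was -0.37, beside -0.01 over all probe sets, and it was below 0 in all 5 pairs. Their mean level ran from 4.31 to 5.06 on rich-raised arrays (median 4.79) and from 4.07 to 4.65 on poor-raised arrays (median 4.37). The median was -0.50 between R-P and R-R, the pair in which tan did not differ beyond its error, and the part of the eye markers in the levels of tan and ebony was not tested.

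Yellow (y) encodes a secreted protein needed for black melanin. Its probe set was dim, from -0.07 to 0.60 on rich-raised and from 0.17 to 1.19 on poor-raised arrays, with medians of 0.32 and 0.57. The average difference was 0.27 ± 0.09 (limma, adjusted p = 0.119), higher in all 5 pairs. Only R-R-R (0.19, 0.24 and 0.28) and R-R-P (0.57, 0.89 and 0.39) were separate, at 0.38 ± 0.19 (adjusted p = 0.659). The largest difference was between R-R (-0.07, 0.48 and 0.21) and R-P (0.27, 0.57 and 1.19), where the arrays overlapped (0.47 ± 0.19, adjusted p = 0.437). It was 0.20 ± 0.26 when replicates 1 and 3 of R-R were left out and 0.25 ± 0.28 without all 4 arrays that stood apart, and then no longer the largest.

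**Figure D2:**
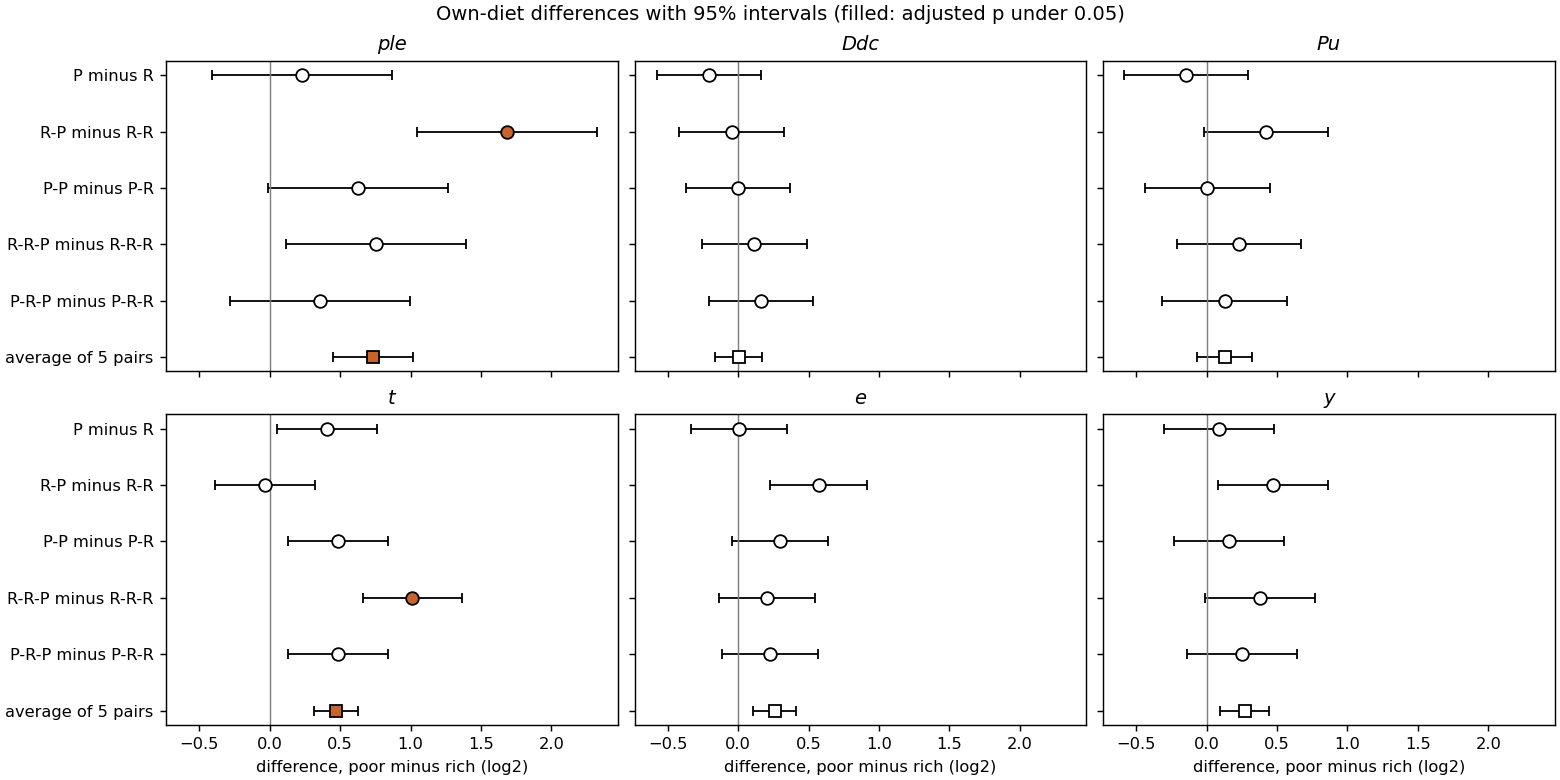
Difference between poor-raised and rich-raised males (log2, horizontal axis) with 95% intervals for each of the 5 pairs and for their average, 1 panel per gene (t is tan, e is ebony, y is yellow). Filled symbols have an adjusted p under 0.05. Filled symbols stand for ple at 1.69 between R-P and R-R, for tan at 1.01 between R-R-P and R-R-R, and for the averages of ple (0.73) and tan (0.47).

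Across the pairs, ple and tan were separate in 3 of 5 each, ebony in 2, yellow in 1, and Pu and Ddc in 0, always with the poor-raised arrays higher. Of all probe sets, 5% were separate in this direction in F0, 4.85% between R-P and R-R, 5.3% between P-P and P-R, 7.88% between R-R-P and R-R-R, and 4.94% between P-R-P and P-R-R. The difference was above 0 in all 5 pairs for ple, yellow and, with the F0 pair at 0.0033, ebony, and for 4.49% of all probe sets. limma called 0 members in F0, between P-P and P-R and between P-R-P and P-R-R, where 0.183%, 0.0523% and 0.0719% of all probe sets were called, and at an unadjusted p under 0.05 it had 1 member, tan, in each of the 3, against 6.25%, 4.38% and 8.82% of all probe sets.

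An F test over the 10 group means called ple and tan (adjusted p = 0.0154 for both) among 0.882% of all probe sets, and not ebony (0.476), yellow (0.750), Pu (0.807) or Ddc (0.841). Without replicates 1 and 3 of R-R it called tan (adjusted p = 0.0374) and not ple (0.265). Leaving out replicate 1 or 3 of R-R alone also ended the call of ple (0.137 and 0.134), and leaving out replicate 1 or 2 of R-R-P that of tan (0.0581 and 0.0651). Whether the effect of own food differed among the 5 pairs was tested directly. The F test called 0 members and 0.0392% of all probe sets, with unadjusted p-values of 0.00562 for tan (adjusted p = 0.627) and 0.0229 for ple (adjusted p = 0.785). The uneven sizes of ple and tan among pairs therefore did not pass a test of their difference.

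The food of parents and grandparents was the second comparison. No member rose or fell with it. In F1 males raised on rich food, ple was higher where the parents had been raised on poor food (P-R 4.68 ± 0.10, R-R 3.36 ± 1.00, SD, n = 3), a difference of 1.31 ± 0.31 that did not pass (limma, adjusted p = 0.181). It was 0.16 ± 0.31 without replicates 1 and 3 of R-R. With arrays weighted by their fit to the model it passed, at 1.44 ± 0.29 (adjusted p = 0.0297), and without replicate 2 of R-R, the array of that group that resembled the others, at 1.89 (adjusted p = 1.39e-04). In poor-raised F1 males the difference of ple was 0.25 ± 0.31, and on average over both foods 0.78 ± 0.22 (adjusted p = 0.356), 1.07 without replicate 2 of R-R (adjusted p = 0.00165) and 0.205 without replicates 1 and 3 (adjusted p = 0.969).

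For tan, parental food gave -0.20 ± 0.17 in rich-raised and 0.32 ± 0.17 in poor-raised F1 males. Grandparental food gave -0.46 ± 0.17 in poor-raised F2 males (adjusted p = 0.919), the P-R-P arrays at 3.96 to 4.31 lying below the R-R-P arrays at 4.41 to 4.75, and 0.07 ± 0.17 in rich-raised ones, or 0.34 without the ovary-bearing arrays. For ebony the largest ancestral difference was 0.36 ± 0.17, of parental food in rich-raised F1 males (adjusted p = 0.892). The differences of Pu ran from -0.20 to 0.21, those of Ddc from -0.01 to 0.11 and those of yellow from -0.11 to 0.24 over the 6 ancestral comparisons.

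Interactions ask whether own food acted differently by ancestry. For ple that in F1 was -1.06 ± 0.44 (adjusted p = 0.984). It was 0.10 ± 0.38 without replicates 1 and 3 of R-R, and -1.64 without replicate 2 (adjusted p = 0.0497). For tan it was 0.52 ± 0.24 in F1 (adjusted p = 0.984) and -0.53 ± 0.24 in F2 (adjusted p = 0.646), the latter -0.80 ± 0.21 without the ovary-bearing arrays (adjusted p = 0.315). Over 6 ancestral comparisons and 2 interactions limma called 0 of 48 combinations of member and comparison, and 7 had an unadjusted p under 0.05, against 6.32% of all combinations of probe set and comparison. Of these 7, 3 were of ple, 3 of tan and 1 of ebony. Those of ple and ebony all use the R-R group, so they are not separate results. Of those of tan, the F1 interaction also uses R-R. Grandparental food in poor-raised F2 males and the F2 interaction both use R-R-P and P-R-P, so these are not separate either. Of all probe sets, 0.0523%, 0.0131% and 0.0196% were called for parental food (raised rich, raised poor, average), 0.00653% for the F1 interaction, and 0% for grandparental food and the F2 interaction.

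The members were then set beside other genes of the same chemistry, 71 measured genes in 9 lists. On average over the 5 pairs 0 rose and 2 fell, 2.82% of the list beside 1.84% of all probe sets. At an unadjusted p under 0.05 there were 12, 7 higher and 5 lower, 16.9% beside 10.2%, and their median difference was 0.01. Of 5 further genes of dopamine and cofactor synthesis, 12 of the yellow family, 9 tanning hormones and receptors, 8 genes of dopamine and tyramine handling, 7 pigmentation regulators, 6 of tyrosine breakdown and 8 of eye pigments, limma called 0 on average. Among these, Pcd, which recycles the pterin cofactor, differed by 0.19 ± 0.07 (adjusted p = 0.192), and amd, a relative of Ddc, by 0.02 ± 0.07.

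Among 7 genes of catecholamine conjugation and beta-alanine, su(r) fell. It encodes dihydropyrimidine dehydrogenase, the first step of the uracil breakdown that yields beta-alanine, the substrate that ebony uses. It read 3.22 to 4.14 on rich-raised arrays and 2.64 to 3.32 on poor-raised arrays, 14 of the 15 poor-raised arrays lying below every rich-raised one. The average difference was -0.70 ± 0.07 (limma, adjusted p = 1.19e-06), lower in 5 of 5 pairs, and it fell between R-P and R-R (-0.76 ± 0.17, adjusted p = 0.0224) and between R-R-P and R-R-R (-0.85 ± 0.17, adjusted p = 0.0433). The call between R-P and R-R was lost without the ovary-bearing arrays (adjusted p = 0.0724) and without replicates 1 and 3 of R-R (adjusted p = 0.358), at -0.79 and -0.84. Without all 4 arrays that stood apart the average was -0.70 ± 0.09 (adjusted p = 3.19e-05). The later enzymes of that breakdown, CRMP (0.14 ± 0.07, adjusted p = 0.507) and pyd3 (0.02 ± 0.08), did not pass, nor did speck, which acetylates dopamine (0.17 ± 0.07, adjusted p = 0.390).

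Of 9 oxidases and crosslinking genes, Gld fell. It encodes glucose dehydrogenase, which in cuticle takes part in sclerotization. On rich-raised arrays it read 2.34 to 3.21 and on poor-raised arrays 1.46 to 2.81, a difference of -0.56 ± 0.10 (limma, adjusted p = 7.26e-04), lower in 5 of 5 pairs and -0.57 ± 0.11 without all 4 arrays that stood apart. The laccase gene stw, whose product oxidizes the catechols in the cuticle, differed by 0.21 ± 0.08 (adjusted p = 0.289), and the prophenoloxidase gene PPO1 by -0.21 ± 0.07 (adjusted p = 0.134). Between R-P and R-R, se, which acts in red eye pigment synthesis downstream of Pu, rose by 0.62 ± 0.14 (adjusted p = 0.0360), which was 0.63 ± 0.16 without the ovary-bearing arrays (adjusted p = 0.127) and 0.57 ± 0.21 without replicates 1 and 3 of R-R (adjusted p = 0.711).

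The structural cuticle list holds mostly genes of cuticle proteins, the partners that tanning crosslinks. It also has some chitin-binding and chitin-modifying genes. Of 124 measured, 16 rose and 0 fell on average, 12.9% against 0.856% of all probe sets, with a median over the list of 0.01 beside -0.01 over all probe sets. The called genes with the largest differences were Vajk2 (1.16 ± 0.26), the chitin-binding Gasp (0.92 ± 0.17), Cpr49Ae (0.90 ± 0.20) and Cpr92F (0.87 ± 0.20). Without replicates 1 and 3 of R-R these averages were 0.78, 0.68, 0.57 and 0.49. The count was 12 without the ovary-bearing arrays, 5 with 1 lower without replicates 1 and 3 of R-R, and 3 with 1 lower without all 4. Between R-P and R-R the count was 6, 4.84% against 0.131% of all probe sets, led by Vajk2 (2.93 ± 0.59), Cpr92F (2.38 ± 0.44), Acp1 (1.98 ± 0.39) and Cpr97Eb (1.95 ± 0.45). It was 1 without the ovary-bearing arrays, and 0 with 1 lower without replicates 1 and 3 of R-R. Without replicates 1 and 3 of R-R, Vajk2, Cpr92F, Acp1 and Cpr97Eb differed by 1.01, 0.51, 1.01 and 0.36 between R-P and R-R. How far the cuticle transcripts of those arrays account for their ple level was not tested. The cuticle counts with arrays left out have no share of all probe sets beside them. A loss of calls in cuticle genes alone thus cannot be told from a general one.

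From array to array, ple followed the structural cuticle genes and tan did so much less. Over the 30 arrays the level of ple correlated with the mean of the 124 genes at Pearson's r = 0.90 and Spearman's rho = 0.83 (permutation p = 1e-05 for both, the smallest that the permutations can give, and 6e-05 adjusted over 6 such relations). Without the 2 arrays farthest from the median of the cuticle mean, replicates 1 and 3 of R-R, r was 0.76, and within groups, from deviations from the group means, 0.83. For tan r was 0.30 and rho 0.47 (permutation p = 0.112 and 0.0103, adjusted 0.134 and 0.0124), r was 0.42 without that pair of arrays and 0.03 within groups. All 30 arrays share groups and a normalization, so they are not fully independent points.

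Of the other members, ebony, Pu and yellow lay between and Ddc below tan. Against the cuticle mean r was 0.69 for ebony (rho 0.63), 0.67 for Pu (rho 0.53) and 0.61 for yellow (rho 0.62), with permutation p-values of 4e-05, 9e-05 and 5.7e-04 for r, and it was 0.57, 0.50 and 0.53 without replicates 1 and 3 of R-R. For Ddc r was -0.03 and rho -0.07 (permutation p = 0.892 and 0.727). Within groups the order changed, with r at 0.72 for Pu, 0.41 for ebony, 0.41 for yellow and -0.34 for Ddc. Among the members themselves, the closest of 15 pairs by Pearson's r over the 30 arrays were ple and ebony (r = 0.72, rho = 0.69, permutation p = 1e-05 and 6e-05, adjusted 1.5e-04 and 9e-04), at 0.65 without replicates 1 and 3 of R-R. The next were ple and Pu (r = 0.63, rho = 0.51, permutation p = 2.4e-04 and 0.00412, adjusted 0.0018 and 0.0155), at 0.42 without those arrays. The order depends on the measure, since by rho ple and yellow (0.60) and Pu and yellow (0.56) came before ple and Pu, and within groups ple and Pu (r = 0.67) were closer than ple and ebony (0.48). Ple and tan, the members that rose, correlated at r = 0.32 and rho = 0.50 (permutation p = 0.0847 and 0.00571, adjusted 0.159 and 0.0171), at r = 0.53 without replicates 1 and 3 of R-R and at 0.08 within groups.

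**Figure D3:**
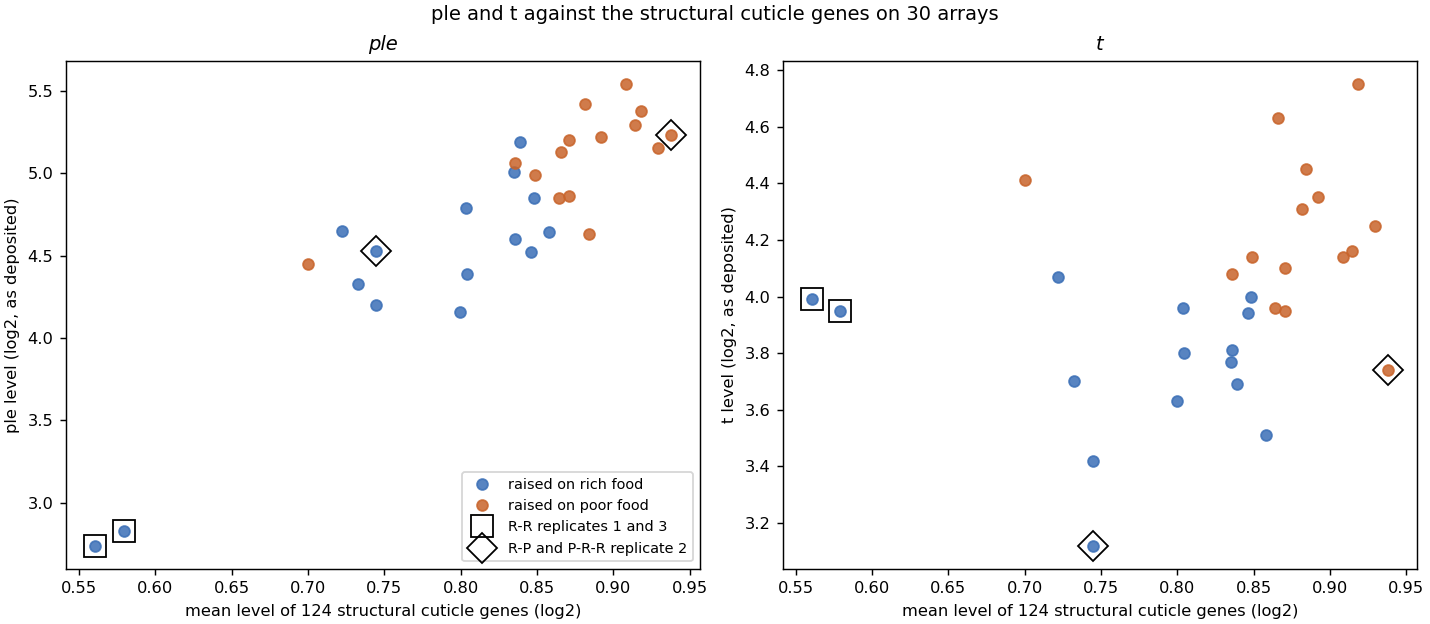
Level of ple (left) and of tan (t, right) against the mean level of 124 structural cuticle genes (both log2), 1 point per array, blue raised on rich and orange on poor food. Squares mark replicates 1 and 3 of R-R, lowest in ple and in cuticle genes, and diamonds the ovary-bearing arrays. The points of ple lie along a line (r = 0.90) and those of tan do not (r = 0.30), the squared arrays having tan levels of 3.95 and 3.99.

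The genes whose pattern over the 30 arrays was most like each member were named by the 3 highest Pearson correlations, as a description. For ple they were 3 cuticle protein genes, Cpr97Eb (r = 0.95), Cpr92F (0.91) and Cpr49Ae (0.90), and on the 26 arrays other than the 4 that stood apart the same genes gave 0.84, 0.69 and 0.74. For ebony they were Cpr97Ea (0.80), CG8736 (0.75) and verm, which encodes a chitin deacetylase (0.75). For Pu they were Fbp2, a fat body protein gene (0.76), CG4000 (0.75) and ATPsyndelta, an ATP synthase subunit gene (0.74).

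For tan the nearest were Hex-C, a hexokinase gene (0.78), CG14459 (0.76) and CG31221 (0.70). Hex-C also rose on average (0.56, adjusted p = 5.70e-04), and within groups its correlation with tan was 0.29 where that of CG14459 was 0.84. For yellow they were its relative yellow-h (0.72), CG13024 (0.72) and CG1674 (0.71). For Ddc the highest values were the weakest of the 6, CG42869 (0.67), Asx (0.65) and CG15580 (0.64).

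Neighbouring genes were examined through the gene order of RefSeq's Release 6 table, with 5 coding genes on each side of a member. Of all probe sets, limma called 1.84% on average over the 5 pairs. None of the 10 measured neighbours of ple rose or fell on average, nor did the 9 of Pu, the 7 of ebony or the 9 of yellow. Of 8 measured neighbours of Ddc, Phb1 fell (-0.30). Among the 10 neighbours of tan, 1 fell, and it was su(r), with 4 coding genes between them. Those 4, SmydA-9, Obp8a, CG15368 and CG15369, differed by -0.22 to -0.06 and did not pass. The levels of tan and su(r) correlated at r = -0.65 over 30 arrays and at -0.17 within groups.

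**Figure D4:**
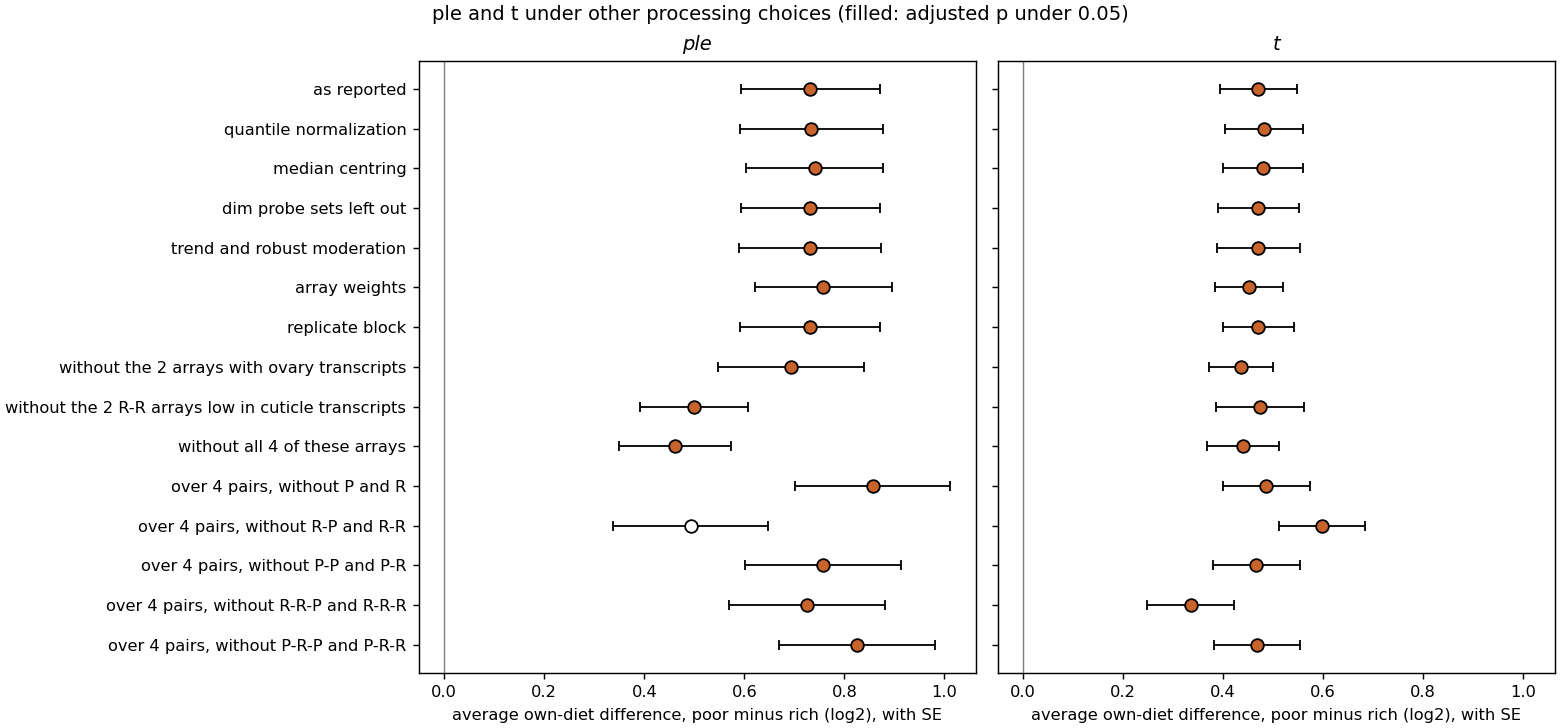
Average own-food difference of ple (left) and tan (t, right), poor minus rich (log2) with its SE, as reported and under 14 other choices of normalization, model, arrays or pairs. Filled points have an adjusted p under 0.05. The open point is ple over the 4 pairs other than R-P and R-R (0.49), and tan is filled throughout, from 0.34 to 0.60.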

How the data were processed

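Per the submitters' processing notes, the authors used GCRMA, a method in which background is corrected from probe sequence, arrays are normalized together and probes are summarized by probe set. The sources used here give no version of it and no definition of the probe sets. The deposited log2 values, from -0.56 to 10.78, are log2 by assumption. Their base is not stated, and with natural logarithms every difference would be 1.44 times larger with the same p-values. Array medians, 0.82 to 0.94, were aligned by the normalization. With 3 arrays per group, precision is limited by their number.

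Means of the 10 groups were estimated from all 30 arrays and 15309 probe sets in R 4.3.3 with limma 3.58.1 (eBayes after lmFit, default settings, no filter), after a test on simulated data. There were 14 contrasts and 2 F tests, adjusted with Benjamini-Hochberg over all probe sets. A parental or grandparental difference is the effect of poor against rich ancestral food, and an interaction is the own-food effect with poor ancestral food less that with rich. Permutation tests of correlations were two-sided.

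Genes were named through the platform annotation, in which 13441 probe sets had 1 symbol. All members were named. From each other list the called genes were named, at most 4 by size in the own-food average or in the pair R-P and R-R. Single further genes given with values that did not pass (Pcd, amd, CRMP, pyd3, speck, stw and PPO1) were picked for their roles. The members and the lists were chosen with earlier results of these data known.

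Alternatives were quantile normalization, median centring, dim probe sets left out, moderation with trend and robust settings, array weights, a replicate block, fits to the arrays of 1 contrast, and arrays left out singly or as the sets that stood apart. No sequences or coordinates were used.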

Additional observations from a re-analysis of the deposited data

How the results depend on the processing

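The averages of ple and tan stayed past the threshold under 13 and 14 of 14 alternatives and in all 30 fits that left out 1 array (0.67 to 0.85 and 0.42 to 0.51). Ebony passed under 3 of 13 alternatives and yellow under 0. For this average a fit to the arrays of the contrast is the reported fit and was not counted. Dim probe sets left out removes ebony and yellow. Leaving out all 4 arrays together, and 4-pair averages other than that without R-P and R-R, were chosen after seeing the data. The signal of ebony and yellow, near or under the array medians, limits what can be seen of them.

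Own food called 1 member instead of 2 over the 4 pairs without R-P and R-R, where it called 150 probe sets instead of 281. Between R-P and R-R it called 0 instead of 1 in a fit to the 6 arrays of the pair (ple 1.69, adjusted p = 0.270). That fit called 20 probe sets instead of 92. Without replicates 1 and 3 of R-R and without all 4 arrays, R-R keeps 1 array, and ple differed by 0.53 and 0.44. Between R-R-P and R-R-R it called 0 in a fit to the 6 arrays of the pair, where it called 2 probe sets instead of 9. The F test over 10 groups called 1 instead of 2 without replicates 1 and 3 of R-R and without all 4 arrays. Parental food in rich-raised F1 males called 1 instead of 0 with array weights, and 18 probe sets instead of 8. Leaving out 1 array moved the number of members called between 2 and 3 for the average, between 0 and 1 for R-P against R-R, R-R-P against R-R-R, parental food in rich-raised F1 males, parental food on average, the F1 interaction and the F test of pairs, and between 1 and 2 for the F test of groups. The causes were not tested.

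Signs turned only where differences had not passed. Between R-P and R-R, Ddc (-0.05) became 0.044 with quantile normalization, 0.04 without the ovary-bearing arrays, 0.073 without replicates 1 and 3 of R-R and 0.16 without all 4. There tan (-0.04) became 0.053, 0.00357 with array weights, 0.055 without the ovary-bearing arrays and 0.075 without all 4, and Pu (0.42) became -0.11 and -0.085 without the R-R pair and all 4. The F1 interaction of ple became 0.10 and 0.19 in those last fits. Between P-P and P-R, Ddc became 0.0076 (quantile) and 0.0033 (centring). With array weights ebony became -0.018 in F0 and -0.039 in the F2 interaction, Pu -0.0036 between P-P and P-R, and the average of Ddc -0.0073. That average was -0.024 and -0.036 without the R-R-P or the P-R-P pair.

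Leaving out 1 array turned a sign within these ranges. In F0 they were -0.18 to 0.18 for ebony and -0.053 to 0.24 for yellow. For Ddc they were -0.045 to 0.039 on average, -0.13 to 0.088 for R-P against R-R, -0.25 to 0.17 for P-P against P-R and -0.022 to 0.25 for P-R-P against P-R-R. For Pu they were -0.078 to 0.13 for P-P against P-R and -0.015 to 0.54 for R-R-P against R-R-R. For tan they were -0.12 to 0.06 for R-P against R-R and -0.14 to 0.34 for grandparental food in rich-raised males. For ebony they were -0.047 to 0.17 for parental food in poor-raised males, -0.12 to 0.14 for the F2 interaction and -0.20 to 0.06 for grandparental food in poor-raised males, where ple had -0.17 to 0.30.

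Replicate numbers recur in every group without a stated meaning. Of the 15 correlations of deviations between numbers, 1 exceeded 0.1 (-0.10 to 0.11). This check showed no pairing of the samples by number, and it cannot exclude one. With a replicate block the average called 3 members instead of 2, ebony being added (0.26, adjusted p = 0.0476), and 300 probe sets instead of 281, and no other count of members moved. The count of probe sets became 6 instead of 1 for the F1 interaction and 7 instead of 11 between P-R-P and P-R-R.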

Other observations

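Of the genes whose pattern was most like a member's, several also passed the test of own food, a member's own difference being part of the likeness that chose them. Cpr97Ea, the gene most like ebony, rose on average by 0.75 (limma, adjusted p = 0.00472), with 10 of 15 poor-raised arrays above the highest rich-raised one. CG8736, also like ebony, rose by 0.74 (adjusted p = 0.0277) and verm by 0.67 (adjusted p = 0.0157). Replicates 1 and 3 of R-R read 0.57 and 0.59 for Cpr97Ea, 1.5 and 1.33 for CG8736 and 1.56 and 1.13 for verm. The means of these genes over 30 arrays were 1.51, 3.08 and 2.21. Their rises are not given without those arrays. CG13024 and CG1674, both like yellow, rose by 0.49 (adjusted p = 0.00387) and 0.29 (adjusted p = 0.0283). The genes most like Ddc did not pass, at -0.03 for CG42869, 0.04 for Asx and 0.04 for CG15580. Hex-C, the gene most like tan, read 1.77 to 2.76 on rich-raised arrays and 2.29 to 3.40 on poor-raised arrays, all 15 of the latter above the rich median of 2.19.

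Within the rich-raised arrays su(r) and tan correlated at r = -0.33 and within the poor-raised arrays at 0.08, each over 15 arrays, as a description.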
